A study of Danio rerio with 6 samples.

Results

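The genes described here build and remodel the matrix that cells rest on: collagens, laminins, nidogens, perlecan, fibronectin, fibrillins and sparc, the integrin receptors that bind them, the matrix metalloproteinases and their tissue inhibitors. They were taken by gene name, as all rows of the deposited count table whose symbol begins with one of these family stems, whatever their values. The rule found 141 of the 32059 rows. They comprise 27 rows of basement membrane components, 15 fibrillar collagens, 30 other collagens, 5 other matrix glycoproteins, 21 integrin alpha chains, 12 integrin beta chains, 25 metalloproteinases and 5 inhibitors. The 1 remaining row, itgb1bp1, encodes a cytoplasmic protein that binds an integrin tail and fits the rule by name only. A further 8 rows whose names in a separate symbol table would fit the rule carry other names in the count table and are not members.

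The libraries hold RNA of cells labelled as thyroid follicular cells, from 5-month-old zebrafish. The cells were sorted by pax2a reporter level, with 3 pax2a-high and 3 pax2a-low libraries. Both populations came from fish of 1 genotype, Tg(tg:nls-EGFP) with a pax2a:mKO2 knock-in, so that the thyroglobulin promoter drives nuclear EGFP and the pax2a locus reports through mKO2. The populations were separated by mKO2 signal, and the labels do not say whether replicates came from separate fish or pools. The comparison addresses how the 2 sorted populations differ.

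Thyroid follicles are closed spheres of a single epithelial layer around a store of thyroglobulin. The base of each cell sits on a basement membrane, a sheet in which laminin trimers and collagen IV networks are joined by nidogen and perlecan, and beyond it lies looser tissue with fibrillar collagen and capillaries. Integrins, each a pair of 1 alpha and 1 beta chain, tie the sheet to the cytoskeleton. Metalloproteinases cut matrix proteins, and the tissue inhibitors (TIMPs) block them.

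Libraries held 18014891 to 35403210 counts in pax2a-high cells, against 6053741 to 10932845 in pax2a-low cells, and mitochondrial rows took 0.799 to 1.17% of the counts in pax2a-high against 24.1 to 49% in pax2a-low. The pax2a gene itself had 4969 to 20604 counts in the pax2a-high libraries, against 12, 10 and 2014 in pax2a-low replicates 1, 2 and 3, so that pax2a-low replicate 3 stood apart from the others of its label. Levels below are CPM, counts scaled to a common library size and adjusted by the trimmed mean of M-values (TMM). Markers of follicular cells (12 genes) summed to 160000 to 243000 CPM in pax2a-high libraries, against 5840 to 35300 CPM in pax2a-low libraries. Most of each sum was tg, at 198000 ± 40800 CPM in pax2a-high against 13800 ± 16200 CPM in pax2a-low (SD, n = 3 each). Of 10 tested, 1 (slc5a5) was higher in pax2a-high cells (10%), beside 1.12% of all genes tested. In 8 (80%) every pax2a-high library lay above every pax2a-low library, beside 21.4% of all genes tested. In pax2a-low replicate 1, tshr and nkx2.4b had 0 counts and duox had 2, while epcam and cdh1 overlapped between the groups. Ionocyte markers (7 genes, 4 of them, foxi3a, ca15a, gcm2 and rhcgb, at 0 in every pax2a-high library) summed to 0.244 to 25.9 in pax2a-high against 515 to 1210 CPM in pax2a-low, with 2 of 4 tested lower (50%), beside 1.46% of all genes tested. Leukocyte markers (10 genes) summed to 27.0 to 172 in pax2a-high against 574 to 1460 CPM in pax2a-low, and keratinocyte markers (6 genes) to 147 to 1110 in pax2a-high against 558 to 2540 CPM in pax2a-low. Of these, 0 of 5 and 0 of 4 tested passed the test, beside 1.12% of all genes tested higher and 1.46% lower. Most of each leukocyte sum was cd74a, cd74b and mpeg1.2, while lcp1 was detected only in pax2a-high libraries. Fibroblast markers were scarce in both (12 genes, 0 to 7.8 in pax2a-high against 0.772 to 27.9 CPM in pax2a-low), with lum, twist1b, prrx1b and tcf21 at 0 in all 6 libraries. Endothelial markers (10 genes) summed to 45.4 to 57.9 in pax2a-high against 0.386 to 108 CPM in pax2a-low, with pecam1 at 0 throughout, cartilage and bone markers (6 genes) to 84.5 to 102 in pax2a-high against 0.779 to 116 CPM in pax2a-low, and muscle markers (8 genes) to 11.2 to 46.8 in pax2a-high against 0 to 3.58 CPM in pax2a-low. Most of each pax2a-high sum was tek for endothelium and sox9a for cartilage and bone. The gene tek was at 57.9, 30.2 and 28.9 CPM in pax2a-high against 0, 59.7 and 24.2 CPM in pax2a-low. The gene sox9a was at 88.3, 74.6 and 77.9 CPM in pax2a-high against 86.4, 67.1 and 0.779 CPM in pax2a-low. Thrombocyte markers (5 genes) were at 0 to 0.196 CPM in pax2a-high libraries and at 0 in all pax2a-low ones. The part of these markers, and of the mitochondrial share, in the results below was not tested, and in sorted bulk samples fewer cells of a type and less RNA per cell cannot be told apart.

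Matrix and adhesion genes as a whole took more of the counts in pax2a-high cells, with fibronectin and the TIMPs furthest apart. Their summed level was 3540, 3430 and 4400 CPM in pax2a-high libraries, against 1310, 1910 and 1250 CPM in pax2a-low libraries, so that the groups did not overlap and their means stood in a ratio of 2.54. Without fn1b the sums were 2750, 2600 and 3190 CPM in pax2a-high against 1310, 1780 and 1120 CPM in pax2a-low, a ratio of 2.03. A single gene passed the test across all genes, the membrane-anchored metalloproteinase gene mmp14a, which rose in pax2a-high cells. At the other end, the laminin chain gene lamb1b and the metalloproteinase gene mmp11a were lower in every pax2a-high library than in any pax2a-low library, without passing the test. These sums are descriptions with no test, because the genes were chosen with earlier results known.

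Of the 141 members, 18 were at 0 in all 6 libraries, 53 had counts but did not pass the filter on low counts, and 70 were tested. At an adjusted p of 0.05 by edgeR's quasi-likelihood test, 1 of the 70 was higher in pax2a-high cells (1.43%), beside 1.12% of all 12524 genes tested, and 0 were lower, beside 1.46% of all genes. At an unadjusted edgeR p of 0.05, 7 members were higher and 2 lower, of the 70 tested, beside 9.76% and 4.6% of all genes. DESeq2, run without a count filter, called 7 higher (8.64%) and 2 lower (2.47%) of 81 members with an adjusted p, beside 6.49% and 3.37% of all genes with one. With limma 2 of the 70 were higher (2.86%) and 0 lower, beside 1.09% and 2.47% of all genes. With any 1 library left out, edgeR called 2 to 5 members higher (2.33 to 5.81% of those tested) and 0 lower. The most were without pax2a-low replicate 1 (5 of 86 tested, 5.81%, beside 1.71% of all genes higher and 1.3% lower). For the other fits with 1 library left out the share over all genes is not given here. Without both libraries numbered 1 or both numbered 2, edgeR called 0 of 84 and 0 of 62. In 18 tested members (25.7%) every pax2a-high library lay above every pax2a-low library, beside 21.4% of all genes tested, and in 2 (2.86%) every pax2a-high library lay below, beside 8.11%. With all 6 libraries these edgeR shares lie near the background for calls and for higher members. The tested members had a median log2 fold change of 1.07, taken as pax2a-high over pax2a-low, against 0.35 over all genes tested, and 48 of the 70 (68.6%) were positive, against 57.1% of all genes.

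**Figure D1:**
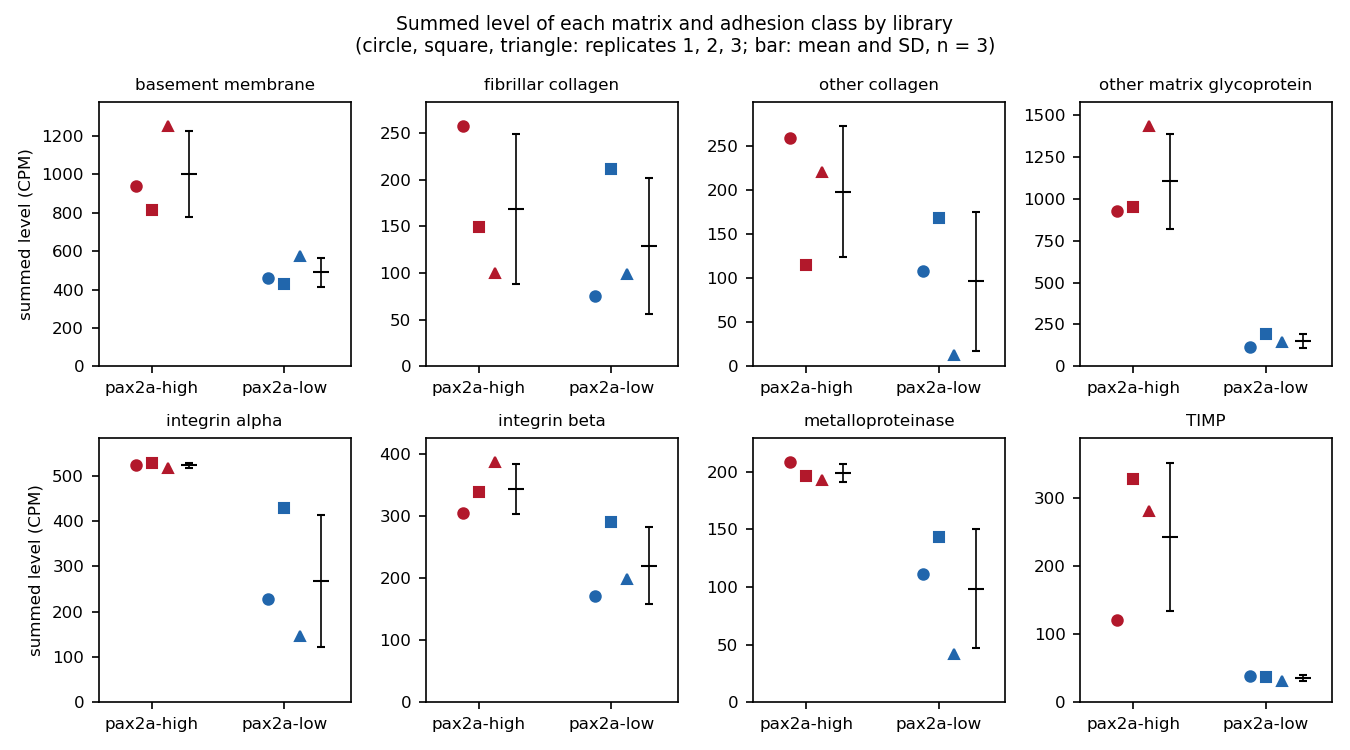
Summed level of each class of matrix and adhesion genes in CPM, with pax2a-high libraries in red on the left and pax2a-low libraries in blue on the right of each panel, 1 point per library and the mean with its SD (n = 3) beside them. The groups do not overlap for basement membrane, other matrix glycoproteins, both integrin classes, metalloproteinases and TIMPs, though integrins and metalloproteinases overlap with 1 gene left out (itga5, itgb1a or itgb1b, mmp14a or mmp2), and overlap for fibrillar and other collagens.

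By class, 6 sums did not overlap between the groups and the sums of both further collagen classes did. On the TMM scale 3 of the 6 separations rested on single genes, as given below. Basement membrane genes summed to 941, 814 and 1250 CPM in pax2a-high libraries, against 463, 430 and 577 CPM in pax2a-low libraries, a ratio of means of 2.05. Fibrillar collagens, the rope-like collagens of connective tissue, summed to 257, 149 and 100 CPM in pax2a-high against 75.9, 212 and 98.6 CPM in pax2a-low, so the groups overlapped. Other collagens also overlapped, at 259, 115 and 221 CPM in pax2a-high against 108, 169 and 12.6 CPM in pax2a-low. Other matrix glycoproteins, mostly fn1b, summed to 925, 953 and 1430 CPM in pax2a-high against 114, 195 and 143 CPM in pax2a-low, a ratio of 7.33. The integrin alpha chains summed to nearly the same level in the pax2a-high libraries, 524, 528 and 516 CPM, and to 229, 429 and 146 CPM in the pax2a-low libraries. Integrin beta chains lay closer together, at 306, 339 and 387 CPM in pax2a-high against 172, 291 and 199 CPM in pax2a-low. Metalloproteinases summed to 208, 196 and 193 CPM in pax2a-high against 111, 143 and 42.0 CPM in pax2a-low, a ratio of 2.02, while TIMPs summed to 121, 328 and 281 CPM in pax2a-high against 38.6, 37.3 and 31.6 CPM in pax2a-low, a ratio of 6.8. Metalloproteinases without mmp14a summed to 107, 116 and 130 CPM in pax2a-high against 111, 143 and 42.0 CPM in pax2a-low, with overlap and a ratio of 1.19, and they overlapped without mmp2 as well. Integrin alpha chains without itga5 overlapped, at 287, 351 and 386 CPM in pax2a-high against 229, 394 and 109 CPM in pax2a-low, and integrin beta chains overlapped without itgb1a or without itgb1b. On the TMM scale, no single gene's absence made the basement membrane, other matrix glycoprotein or TIMP sums overlap, but the ratios fell. Without timp4.1 the TIMP ratio was 3.4, without lama5 the basement membrane ratio was 1.57, and without fn1b the other matrix glycoprotein ratio was 2.49. Each ordering of the full sums, and the overlap of both collagen classes, was the same with DESeq2 size factors and with library sizes that left out mitochondrial rows. Without fn1b, however, the other matrix glycoprotein sums overlapped on both of these scales. With DESeq2 size factors, fn1b made up 769 of 880 CPM in pax2a-high replicate 2, against 1.43 of 140 CPM in pax2a-low replicate 1. Without mitochondrial rows the same values were 1000 of 1140 CPM against 1.61 of 159 CPM.

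**Figure D2:**
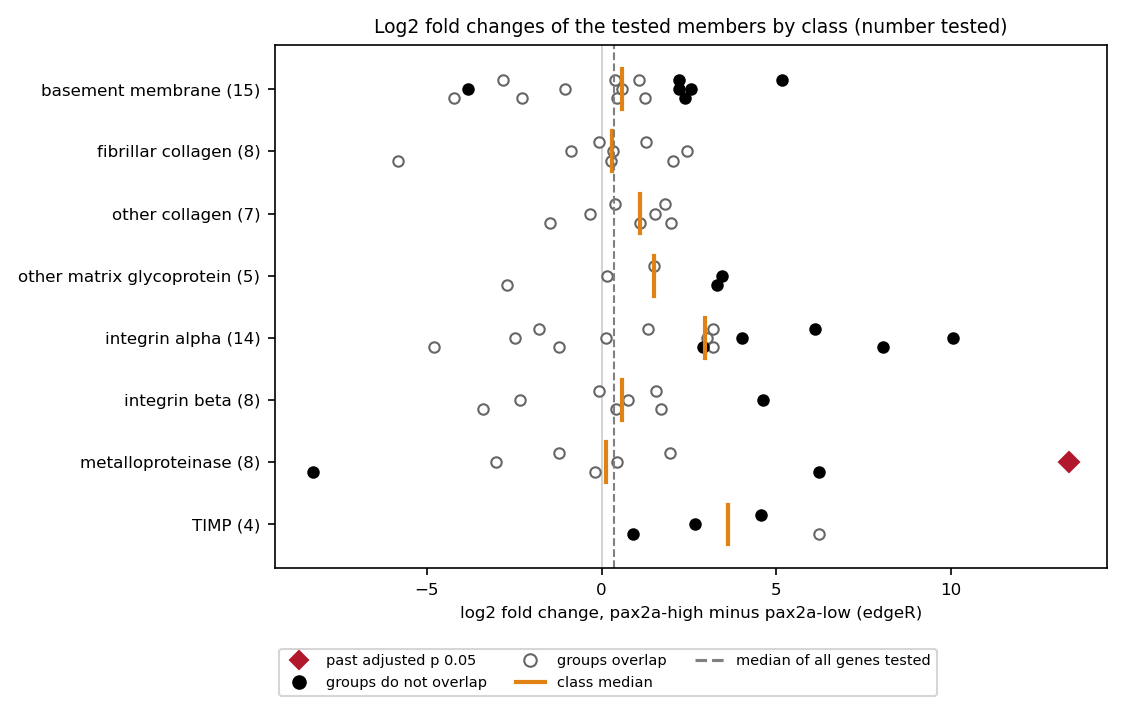
Log2 fold change (pax2a-high minus pax2a-low, edgeR) of each tested member, by class, with the number tested in brackets. Filled points are members whose groups do not overlap, the red diamond is mmp14a, the orange bar is the class median and the dashed line the median of all genes tested, 0.35.

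Laminins, the trimers that start a basement membrane, had values in both directions, by chain. The alpha5 chain gene lama5 (ENSDARG00000058543) had 6245, 4187 and 14401 counts in pax2a-high libraries, against 116, 379 and 1550 counts in pax2a-low libraries, or 332 ± 105 in pax2a-high against 63.4 ± 51.2 CPM in pax2a-low (SD, n = 3 each). Its log2 fold change, 2.39 (SE 0.65), did not pass (adjusted p = 0.0674 by edgeR), but it passed without pax2a-low replicate 3 (3.22, adjusted p = 0.00318 by edgeR) and without pax2a-high replicate 2 (2.67, adjusted p = 0.00854 by edgeR). The gene lama5 passed in 5 of 19 alternative settings, and not with DESeq2 (adjusted p = 0.28 by DESeq2) or limma (adjusted p = 0.15 by limma). The beta1 chain gene lamb1b (ENSDARG00000045524) was at 16.2, 6.68 and 3.48 CPM in pax2a-high libraries, against 174, 18.1 and 177 CPM in pax2a-low libraries. All pax2a-high libraries lay below all pax2a-low ones, pax2a-low replicate 2 being far below the other pax2a-low libraries (log2 fold change -3.81, SE 1.07, adjusted p = 0.0778 by edgeR). With DESeq2 size factors lamb1b passed (-4.02, adjusted p = 0.046 by edgeR). It passed in 2 of 19 alternative settings, and not with limma (adjusted p = 0.11 by limma). Another beta chain gene, lamb2, was at 129, 87.9 and 173 CPM in pax2a-high against 44.5, 16.9 and 126 CPM in pax2a-low, with overlap. For every 100 counts of lamb2 there were thus 12.6, 7.59 and 2.01 counts of lamb1b in pax2a-high libraries, against 390, 107 and 141 in pax2a-low libraries, a ratio chosen after these values were seen. The gamma1 chain gene lamc1, shared by most laminins, was at 102 ± 60.0 in pax2a-high against 74.4 ± 2.87 CPM in pax2a-low (SD, n = 3 each) and overlapped. Of the 8 laminin genes tested 3 had positive and 5 negative log2 fold changes, with a median of -1.66. Of the others, lama1 was uneven, at 0, 0 and 7.95 CPM in pax2a-high against 54.6, 2.23 and 0 CPM in pax2a-low (log2 fold change -2.83, SE 2.93, adjusted p = 0.829 by edgeR). The gene lama4 was at 0, 0.101 and 6.37 CPM in pax2a-high against 3.86, 22.1 and 5.77 CPM in pax2a-low, while lamb1a was at 0 in all libraries. The beta chain rows lamb2l and lamb4 were low, with 0, 2 and 32 counts in pax2a-high against 44, 82 and 6 in pax2a-low for lamb2l (log2 fold change -4.21, SE 2.82, adjusted p = 0.637 by edgeR), and 0, 2 and 90 in pax2a-high against 0, 84 and 0 in pax2a-low for lamb4, which was not tested.

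Collagen IV forms the network of the sheet from chains whose genes lie in adjacent pairs. Each of the pairs col4a1 and col4a2, col4a3 and col4a4, and col4a5 and col4a6 was adjacent in the GRCz12tu annotation. The gene col4a1 was at 111, 125 and 59.7 CPM in pax2a-high libraries, against 0, 5.96 and 44.4 CPM in pax2a-low libraries, and its partner col4a2 at 50.9, 42.5 and 60.3 CPM in pax2a-high against 15.4, 17.1 and 0.156 CPM in pax2a-low. Neither overlapped between the groups and neither passed (log2 fold changes 2.55 and 2.23, edgeR adjusted p of 0.501 and 0.654). Within the pax2a-low libraries these partners were uneven, with 570 counts of col4a1 beside 2 of col4a2 in replicate 3, and 0 beside 80 in replicate 1. The remaining chains overlapped, at 42.0 ± 13.5 in pax2a-high against 27.9 ± 20.7 CPM in pax2a-low for col4a4, 20.7 ± 16.2 in pax2a-high against 15.8 ± 13.9 CPM in pax2a-low for col4a5 and 25.7 ± 22.9 in pax2a-high against 10.8 ± 10.3 CPM in pax2a-low for col4a6 (SD, n = 3 each). The chain gene col4a3 had at most 6 counts in a pax2a-high library and 4, 98 and 0 in the pax2a-low libraries, and was not tested.

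Perlecan, the heparan sulfate proteoglycan encoded by hspg2, had 2026, 3740 and 6521 counts in pax2a-high libraries, against 18, 744 and 136 counts in pax2a-low libraries. Its level was 165 ± 36.2 in pax2a-high against 35.5 ± 49.4 CPM in pax2a-low (SD, n = 3 each) without overlap, and the log2 fold change, 2.22 (SE 0.96), did not pass (adjusted p = 0.276 by edgeR). With pax2a-low replicate 2, the highest of its group, left out it was 4.5 (adjusted p = 0.0422 by edgeR). The gene hspg2 passed in 2 of 19 alternative settings, and not with DESeq2 (adjusted p = 0.43 by DESeq2). The collagen XV gene col15a1b, a basement membrane zone collagen, was at 9.89, 1.62 and 25.7 CPM in pax2a-high against 0.386, 0 and 0.623 CPM in pax2a-low. This too left the groups apart (log2 fold change 5.16, adjusted p = 0.483 by edgeR). Nidogen genes were barely detected: nid1a had 0, 69 and 236 counts in pax2a-high against 0, 2 and 0 in pax2a-low, nid1b was at 0 throughout, and nid2a and nid2b each had counts in 1 library of either group.

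**Figure D3:**
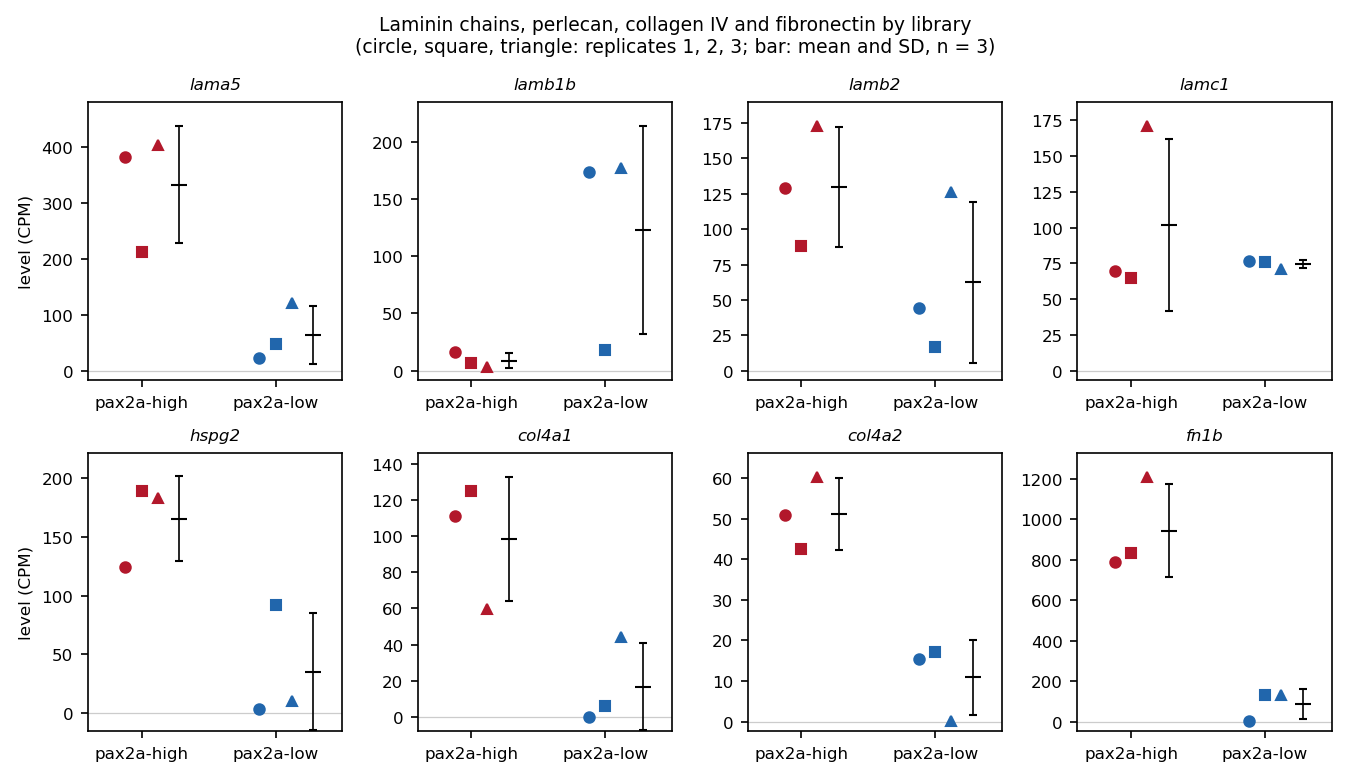
Level in CPM of laminin chains, perlecan (hspg2), collagen IV chains and fibronectin (fn1b) in each library, pax2a-high in red on the left and pax2a-low in blue on the right, with the mean and SD (n = 3). lamb1b is the gene with all pax2a-high libraries below all pax2a-low libraries, while lamb2 and lamc1 overlap.

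Fibronectin, a glycoprotein that cells assemble into fibrils through integrins, was carried by fn1b (ENSDARG00000006526). It had 12937, 16471 and 43235 counts in pax2a-high libraries, against 6, 1050 and 1676 counts in pax2a-low libraries, and made up 22.3, 24.3 and 27.6% of all member counts in pax2a-high against 0.0882, 6.81 and 10.4% in pax2a-low. Its mean was 946 ± 233 in pax2a-high against 87.3 ± 74.6 CPM in pax2a-low (SD, n = 3 each). The groups were far apart, with pax2a-low replicate 1 nearly empty. The log2 fold change, 3.44 (SE 1.38), did not pass (adjusted p = 0.328 by edgeR), and with pax2a-low replicate 1 left out it was 2.89 (adjusted p = 0.000652 by edgeR). Of 19 alternative settings, fn1b passed in that 1 alone. The second copy, fn1a, had 0, 18 and 100 counts in pax2a-high against 0, 196 and 0 in pax2a-low. The collagen-binding glycoprotein gene sparc was at 128, 109 and 211 CPM in pax2a-high against 113, 34.1 and 10.4 CPM in pax2a-low, with pax2a-low replicate 1 inside the pax2a-high range (log2 fold change 1.51, adjusted p = 0.462 by edgeR). Without that library it was 2.79 (adjusted p = 0.0442 by edgeR), the only 1 of 19 alternative settings in which sparc passed. Of the fibrillin genes, which encode microfibril proteins, fbn2b was at 7.33, 3.44 and 1.63 CPM in pax2a-high against 0, 1.24 and 0 CPM in pax2a-low. These groups were close together without overlapping (log2 fold change 3.29, SE 2.73, adjusted p = 0.754 by edgeR). The gene fbn2a was at 0, 6.98 and 0.253 CPM in pax2a-high against 0, 4.59 and 1.87 CPM in pax2a-low.

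Among the fibrillar collagens 0 of 8 tested passed, beside 1.12% of all genes tested higher and 1.46% lower. The groups did not overlap for 0 of them, beside 21.4% of all genes higher and 8.11% lower. At an unadjusted edgeR p of 0.05 there were 0 in either direction, beside 9.76% higher and 4.6% lower. The median log2 fold change of the class was 0.29. The collagen II gene col2a1b was at 85.4, 56.9 and 31.6 CPM in pax2a-high libraries, against 72.1, 39.9 and 33.5 CPM in pax2a-low libraries, so that the groups lay over one another (log2 fold change 0.26, SE 0.91, adjusted p = 0.974 by edgeR). The collagen I genes, the main collagen of skin and bone, were uneven between replicates: col1a1a was at 51.3, 13.2 and 9.46 CPM in pax2a-high against 0, 30.9 and 0 CPM in pax2a-low, and col1a1b at 50.3, 1.11 and 3.54 CPM in pax2a-high against 0, 51.4 and 6.08 CPM in pax2a-low. Among collagens of other kinds, col7a1l, named as a relative of the anchoring-fibril collagen VII, was at 83.3, 57.5 and 124 CPM in pax2a-high against 79.8, 9.68 and 2.49 CPM in pax2a-low. Its log2 fold change, 1.53, did not pass (adjusted p = 0.684 by edgeR), and with pax2a-low replicate 1 left out it was 3.9 (adjusted p = 0.0305 by edgeR). Of 19 alternative settings, col7a1l passed in that 1 alone. The hemidesmosome collagen gene col17a1b had 754, 402 and 487 counts in pax2a-high against 138, 244 and 58 in pax2a-low, or 26.7 ± 17.1 in pax2a-high against 20.5 ± 13.9 CPM in pax2a-low (SD, n = 3 each), with overlap. The collagen XXVIII gene col28a1a had 897, 26 and 313 counts in pax2a-high against 0, 132 and 0 in pax2a-low. The collagen X gene col10a1b, known from cartilage in mammals, had 376, 4 and 80 counts in pax2a-high libraries against 0 in all pax2a-low libraries, at least 21.5-fold higher against a floor of 3 counts in each library, and did not pass the count filter (adjusted p = 0.0199 by DESeq2). Such a bound rests on counting alone and leaves out the spread between libraries. It takes each count as a separate read, so it is too high if both mates of a pair were counted.

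Integrin alpha chains decide which matrix protein a receptor binds. Of 14 tested, 10 had positive and 4 negative log2 fold changes, with a median of 2.96, and 0 passed, beside 1.12% of all genes tested higher and 1.46% lower. At an unadjusted edgeR p of 0.05 there were 3 higher (21.4%) and 0 lower, beside 9.76% and 4.6% of all genes. The fibronectin receptor chain gene itga5 (ENSDARG00000006353) had 3884, 3499 and 4625 counts in pax2a-high libraries, against 0, 282 and 484 counts in pax2a-low libraries, or 181 ± 53.8 in pax2a-high against 24.2 ± 21 CPM in pax2a-low (SD, n = 3 each). The groups did not overlap, and the log2 fold change was 2.90 (SE 1.43, adjusted p = 0.438 by edgeR). It passed without pax2a-high replicate 3 (3.09, adjusted p = 0.0381 by edgeR) and without pax2a-low replicate 1 (2.35, adjusted p = 0.0435 by edgeR). The gene itga5 passed in 4 of 19 alternative settings, and not with DESeq2 (adjusted p = 0.4 by DESeq2) or limma (adjusted p = 0.19 by limma).

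Several alpha chains were close to absent from most pax2a-low libraries. The gene itga11a, whose mammalian counterpart is a collagen receptor chain, had 756, 468 and 1063 counts in pax2a-high against 0, 0 and 4 in pax2a-low (log2 fold change 8.05, SE 2.6, adjusted p = 0.136 by edgeR). It passed with DESeq2 (8.01, adjusted p = 0.00108 by DESeq2) and with limma (7.96, adjusted p = 0.0492 by limma). The laminin receptor chain gene itga6a had 360, 1216 and 767 counts in pax2a-high against 0, 12 and 0 in pax2a-low (6.11, SE 2.5, adjusted p = 0.234 by edgeR). Of 19 alternative settings, itga6a passed with DESeq2 alone (6.11, adjusted p = 0.0392 by DESeq2), and not with limma (adjusted p = 0.1 by limma). Its second copy itga6b had 655, 1073 and 2868 counts in pax2a-high against 0, 558 and 0 in pax2a-low, with pax2a-low replicate 2 inside the pax2a-high range on the CPM scale. With all 6 libraries the log2 fold change of itga6b was 1.34 (SE 2.07, adjusted p = 0.912 by edgeR). Without pax2a-low replicate 2 it was 13.02 (adjusted p = 0.0374 by edgeR). No pax2a-low counts of itga6b were then left, so the size of that value is not a measured fold. The gene itga9 was at 56.1, 85.3 and 48.0 CPM in pax2a-high against 0, 11.7 and 0 CPM in pax2a-low (4.02, SE 1.93, adjusted p = 0.364 by edgeR; without pax2a-low replicate 2, adjusted p = 0.029 by edgeR). Of 19 alternative settings, itga9 passed in that 1 alone. In each of these genes the pax2a-low counts came from 1 library.

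Other alpha chains had values in the opposite direction, or groups that overlapped. The laminin receptor chain gene itga3b was at 36.0, 25.6 and 104 CPM in pax2a-high libraries, against 157, 166 and 61.9 CPM in pax2a-low libraries, a negative log2 fold change of -1.22 (SE 0.76, adjusted p = 0.594 by edgeR) with overlap. The gene itgav, whose product binds the RGD sequence of several matrix proteins, was at 43.8 ± 9.99 in pax2a-high against 40.2 ± 32.8 CPM in pax2a-low (SD, n = 3 each; log2 fold change 0.13, adjusted p = 0.992 by edgeR), and its sign turned with DESeq2 size factors (-0.1). Leukocyte integrin chains were low and split. Counts of itgam were 335, 23 and 104 in pax2a-high libraries against 0 in all pax2a-low libraries, at least 20.7-fold higher by the same floor (adjusted p = 0.203 by edgeR). Of 16 alternative settings, itgam passed with DESeq2 alone (adjusted p = 0.0111 by DESeq2), and not with limma (adjusted p = 0.22 by limma). However, itgb2, which encodes the beta partner of itgam in mammals, was at 0 in pax2a-high cells and had 0, 46 and 0 counts in pax2a-low cells. Summed leukocyte markers were lower in every pax2a-high library, as given above, but these sums were mostly cd74a, cd74b and mpeg1.2. Some genes of that list had values in the opposite direction. Counts of lcp1 were 8, 24 and 61 in pax2a-high libraries against 0 in all pax2a-low libraries. The log2 fold changes of ptprc and coro1a were positive (1.93 and 0.72), with overlap. The part of leukocytes was not tested. The gene itgae.2 had 2, 43 and 0 counts in pax2a-high against 0, 242 and 428 in pax2a-low. The thrombocyte chain gene itga2b was at 0 in all 6 libraries.

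**Figure D4:**
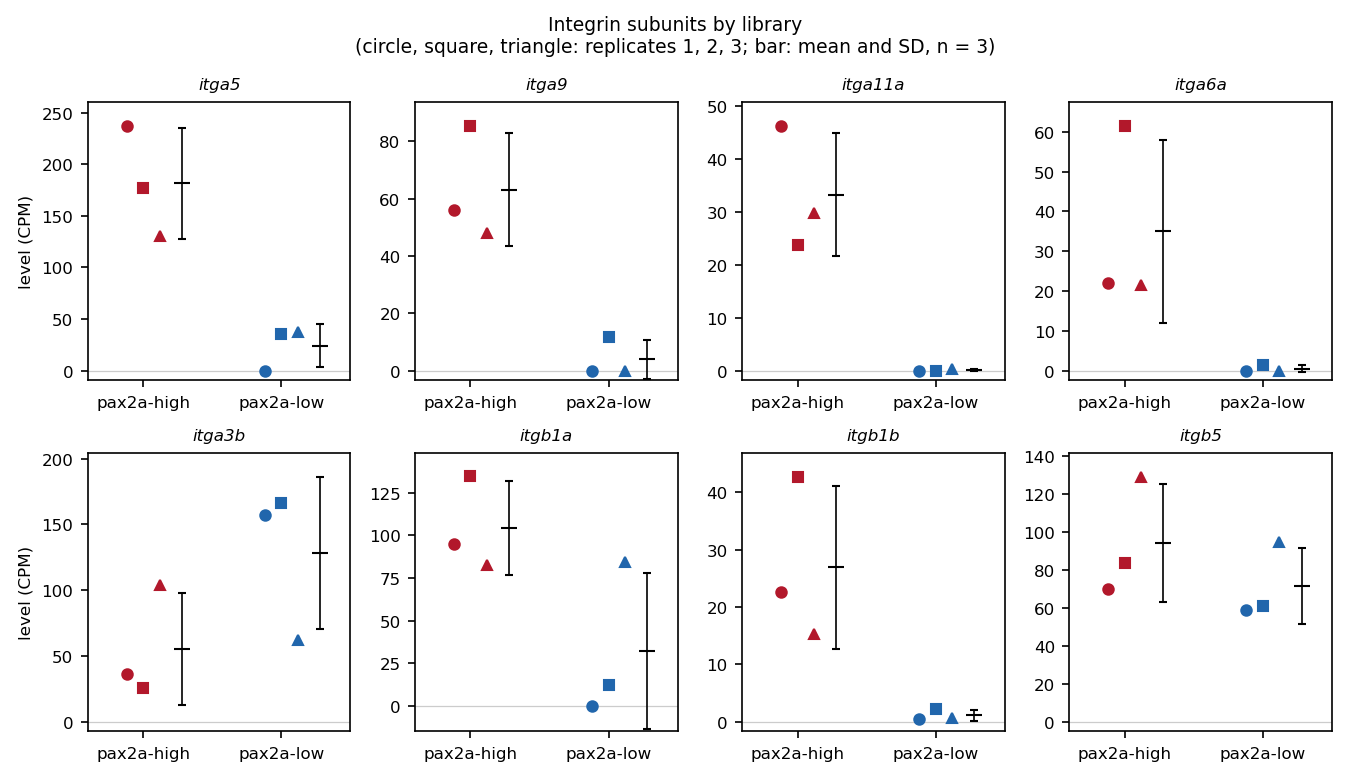
Level in CPM of 5 integrin alpha and 3 integrin beta chain genes in each library, pax2a-high in red on the left and pax2a-low in blue on the right, with the mean and SD (n = 3). itga5, itga9, itga11a, itga6a and itgb1b do not overlap between the groups, while itga3b, itgb1a and itgb5 do.

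The summed integrin beta chains stood in a ratio of 1.56. The beta1 chain, partner of most of the alpha chains above, is encoded by several copies. Of these, itgb1a was at 95.1, 135 and 82.8 CPM in pax2a-high libraries, against 0, 12.2 and 84.6 CPM in pax2a-low libraries, so that pax2a-low replicate 3 reached the pax2a-high range. The copy itgb1b had 372, 844 and 544 counts in pax2a-high against 2, 18 and 8 in pax2a-low without overlap (log2 fold change 4.62, SE 2.24, adjusted p = 0.371 by edgeR). Of 19 alternative settings, itgb1b passed with DESeq2 alone (adjusted p = 0.0169 by DESeq2), and not with limma (adjusted p = 0.22 by limma). The related rows itgb1b.1 and itgb1b.2 averaged 13.7 in pax2a-high against 14.3 CPM in pax2a-low and 5.25 in pax2a-high against 1.78 CPM in pax2a-low. How reads were divided among these copies was not tested. The hemidesmosome chain gene itgb4 had 1708, 1040 and 4578 counts in pax2a-high against 2, 1198 and 238 in pax2a-low, with pax2a-low replicate 2 highest of all 6 libraries at 149 CPM. The vitronectin receptor chain gene itgb5 was at 94.0 ± 30.7 in pax2a-high against 71.4 ± 20.1 CPM in pax2a-low (SD, n = 3 each), with a log2 fold change of 0.4 (adjusted p = 0.929 by edgeR). The gene itgb6 was at 0, 0 and 8.7 CPM in pax2a-high against 90.6, 0.993 and 0 CPM in pax2a-low (log2 fold change -3.39, SE 2.84, adjusted p = 0.758 by edgeR). Of the 8 beta chain genes tested, 0 passed, beside 1.12% of all genes tested higher and 1.46% lower. At an unadjusted edgeR p of 0.05 there were 0 as well, beside 9.76% and 4.6%, and DESeq2 called itgb1b alone.

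Metalloproteinases held both the member that rose and the member with the most negative log2 fold change. The mammalian MMP14 is a membrane-anchored collagenase that also activates MMP2 on the cell surface with the help of TIMP2. Its zebrafish copy mmp14a (ENSDARG00000002235) had 1655, 1586 and 2267 counts in pax2a-high libraries, against 0, 0 and 0 counts in pax2a-low libraries, or 81.6 ± 18.7 CPM (SD, n = 3) in pax2a-high cells. It was at least 207-fold higher, taking 3 counts in each pax2a-low library as the floor (log2 fold change 13.38, SE 2.06, adjusted p = 0.00196 by edgeR). The 0 counts included pax2a-low replicate 3, which held 2014 pax2a counts. The call held when any 1 library was left out (edgeR adjusted p of up to 0.0468, without pax2a-high replicate 1) and was lost without both libraries numbered 1 (0.092) or both numbered 2 (0.18). The second copy mmp14b had 0, 292 and 478 counts in pax2a-high against 0, 528 and 0 in pax2a-low, with pax2a-low replicate 2 highest at 65.5 CPM (log2 fold change -1.22, SE 2.61, adjusted p = 0.946 by edgeR). The sign of mmp14b was positive with limma (2.66) and without pax2a-low replicate 2 (10.39). Without that library no pax2a-low counts of mmp14b were left, so the size of that value is not a measured fold.

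The gelatinase gene mmp2 was at 86.2, 43.8 and 98.1 CPM in pax2a-high libraries, against 51.3, 7.94 and 0 CPM in pax2a-low libraries, with overlap (log2 fold change 1.95, SE 1.51, adjusted p = 0.729 by edgeR). The gene mmp11a (ENSDARG00000026325), which encodes stromelysin-3, had 0, 5 and 0 counts in pax2a-high against 266, 16 and 385 in pax2a-low. The groups did not overlap (log2 fold change -8.26, SE 2.97, adjusted p = 0.185 by edgeR). Of 18 alternative settings, mmp11a passed with DESeq2 alone (-8.69, adjusted p = 0.00278 by DESeq2), and not with limma (adjusted p = 0.078 by limma). The gene mmp23bb, a relative of mammalian membrane-bound MMP23, had 114, 229 and 65 counts in pax2a-high against 0, 2 and 0 in pax2a-low. The ratio of pooled rates was 74.1, with a 95% exact Poisson interval of 20.4 to 614. This interval takes each count as a separate read and leaves out the spread between libraries. It is too narrow if both mates of a pair were counted. The log2 fold change of mmp23bb, 6.22, did not pass with edgeR (adjusted p = 0.382 by edgeR). Of 18 alternative settings, mmp23bb passed with DESeq2 alone (adjusted p = 0.0324 by DESeq2), and not with limma (adjusted p = 0.22 by limma). Of 25 metalloproteinase rows, 8 were tested, with 4 positive and 4 negative log2 fold changes and a median of 0.12. The gelatinase gene mmp9 was at 8.61, 0 and 6.21 CPM in pax2a-high against 0, 10.7 and 0.156 CPM in pax2a-low. Both rows named mmp13a, a collagenase, held at most 2 counts in any library.

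TIMP genes all had positive log2 fold changes among the 4 tested, with a median of 3.62, and 0 passed, beside 1.12% of all genes tested higher and 1.46% lower. At an unadjusted edgeR p of 0.05 there were 0 as well, beside 9.76% and 4.6%. DESeq2 also called 0, beside 6.49% higher and 3.37% lower of all genes with an adjusted p. The most evenly expressed, timp2a, was at 43.5, 49.5 and 71.5 CPM in pax2a-high libraries, against 38.2, 28.3 and 21.8 CPM in pax2a-low libraries, close together without overlapping (log2 fold change 0.9, SE 1.04, adjusted p = 0.859 by edgeR). The groups overlapped with DESeq2 size factors and with library sizes without mitochondrial rows, where pax2a-low replicate 1 exceeded pax2a-high replicate 1. Its copy timp2b was at 60.9, 28.2 and 17.1 CPM in pax2a-high against 0, 4.47 and 0 CPM in pax2a-low (4.56, SE 2.39, adjusted p = 0.442 by edgeR). The timp4 genes timp4.1, timp4.2 and timp4.3 are neighbours in the GRCz12tu annotation. The first of them, timp4.1, had 0, 4541 and 5476 counts in pax2a-high against 2, 37 and 2 in pax2a-low, so that pax2a-high replicate 1 held none of a transcript that stood at 230 and 154 CPM in the other pax2a-high libraries. Its log2 fold change, 6.21 (SE 2.64), did not pass (adjusted p = 0.349 by edgeR), but it passed without pax2a-high replicate 1 (6.84, adjusted p = 0.0281 by edgeR) and without pax2a-high replicate 3 (6.07, adjusted p = 0.0117 by edgeR). The gene timp4.1 passed in 3 of 18 alternative settings, and not with DESeq2 (adjusted p = 0.08 by DESeq2) or limma (adjusted p = 0.75 by limma). Counts of timp4.2 were 0, 0 and 520 in pax2a-high libraries against 0 in all pax2a-low libraries, and those of timp4.3 were 280, 415 and 867 in pax2a-high against 0, 0 and 124 in pax2a-low.

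**Figure D5:**
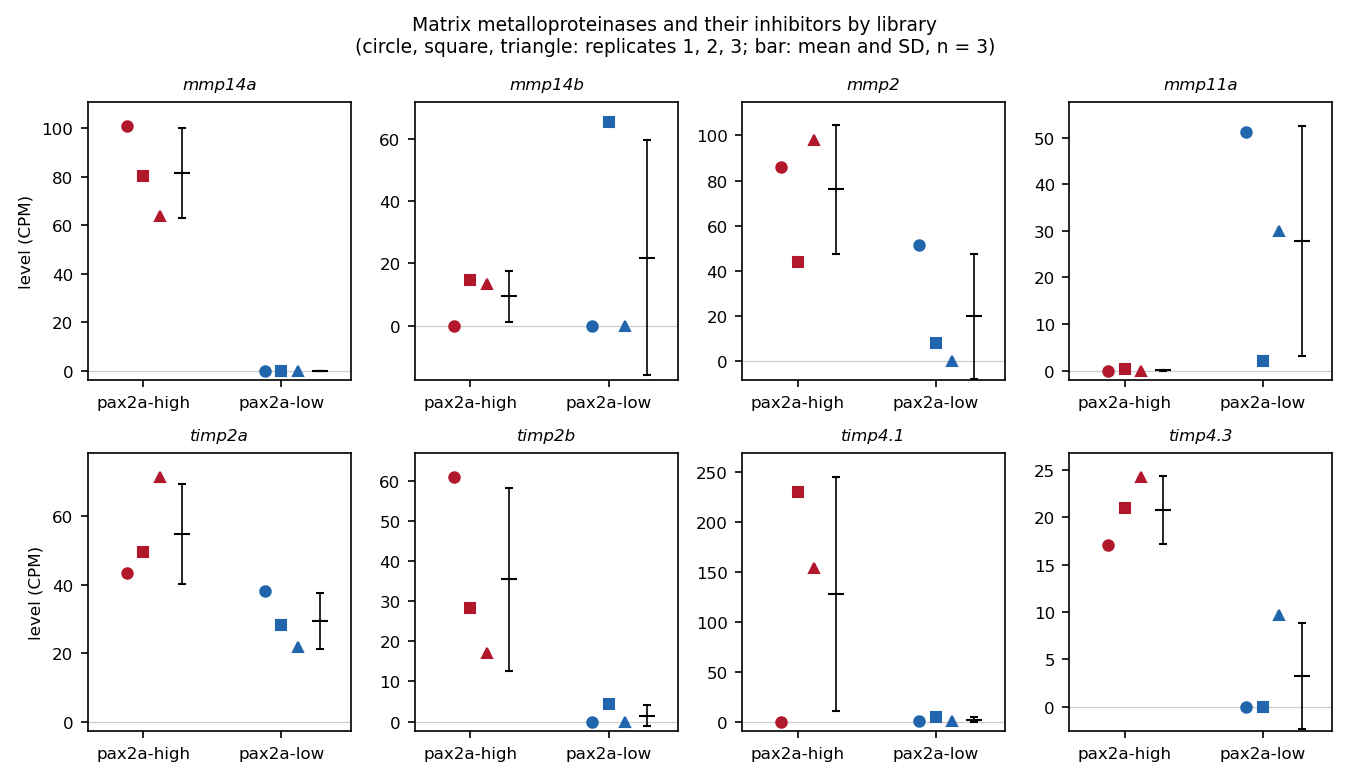
Level in CPM of 4 metalloproteinase and 4 TIMP genes in each library, pax2a-high in red on the left and pax2a-low in blue on the right, with the mean and SD (n = 3). mmp14a is at 0 in all pax2a-low libraries, mmp11a is at or near 0 in the pax2a-high libraries, and timp4.1 is at 0 in pax2a-high replicate 1.

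Much of the spread lay between replicates of 1 population. Among the 70 tested members the median coefficient of variation over 3 libraries was 0.74 for pax2a-high and 1.4 for pax2a-low libraries. Over all genes tested it was 0.65 for pax2a-high and 1.11 for pax2a-low libraries. A count of 0 in at least 1 library was found for 21 tested members (30.0%) among pax2a-high libraries and 42 (60.0%) among pax2a-low libraries, beside shares of 23.1% (pax2a-high) and 55.4% (pax2a-low) of all genes tested, and 22 members were detected in all 6 libraries. Members detected per library numbered 63, 81 and 100 of 141 in pax2a-high cells, against 42, 84 and 62 in pax2a-low cells. Thinned to the total of the shallowest library, they numbered 61, 76 and 95 in pax2a-high against 42, 84 and 58 in pax2a-low, so pax2a-low replicate 2 lay within the range of the pax2a-high libraries. Of the 53 members with counts that were not tested, 40 stayed under 100 counts in every library. Among the other 13, mmp19 had 445 counts in pax2a-high replicate 2 and 0 in every other library, col8a2 had 0, 322 and 675 counts in pax2a-high libraries, against 0, 0 and 2 in pax2a-low libraries, and itga11b had 0, 190 and 526 in pax2a-high against 4, 0 and 0 in pax2a-low. In the other direction, 1 of 2 rows named col19a1 had 0 counts in pax2a-high libraries, against 0, 122 and 8 in pax2a-low libraries (adjusted p = 0.0311 by DESeq2).

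Genes that modify and secrete collagen had a higher median log2 fold change than the collagens themselves, which was not tested. In a list of collagen maturation genes, 22 of 30 found were tested, 1 rose (4.55%) and 0 fell at an adjusted edgeR p of 0.05, beside 1.12% and 1.46% of all genes tested, and in 13 (59.1%) the lowest pax2a-high library exceeded the highest pax2a-low one, beside 21.4% of all genes tested. Their median log2 fold change was 3.57, or 3.51 with 2 genes that had no pax2a-low counts set at their bound. The median was 0.29 for the fibrillar collagens, 1.25 for collagen IV, 1.09 for the other collagens and 0.35 for all genes tested. The one that rose, ppib, which encodes the cyclophilin of the endoplasmic reticulum, had 3760, 6278 and 12686 counts in pax2a-high libraries, against 18, 156 and 458 counts in pax2a-low libraries (log2 fold change 3.94, SE 0.78, adjusted p = 0.00973 by edgeR). The prolyl hydroxylase gene p4ha2, whose product hydroxylates collagen prolines, was at 217 ± 109 in pax2a-high against 34.0 ± 19.4 CPM in pax2a-low (SD, n = 3 each; adjusted p = 0.0631 by edgeR). The procollagen-trimming protease gene adamts3 was at 74.1 ± 7.03 in pax2a-high against 1.13 ± 1.82 CPM in pax2a-low (SD, n = 3 each; adjusted p = 0.0813 by edgeR). Several of these genes also serve secreted proteins other than collagen.

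In the list of focal adhesion genes and further matrix receptors, 0 of 26 tested passed, beside 1.12% of all genes tested higher and 1.46% lower. At an unadjusted edgeR p of 0.05 there were 2 higher (7.69%) and 3 lower (11.5%), beside 9.76% and 4.6% of all genes tested, and the median log2 fold change was 0.54. The 3 with the smallest p, all kinase genes, had lower values in pax2a-high cells: ptk2ba, which encodes a focal adhesion kinase relative, was at 4.28 ± 3.73 in pax2a-high against 93.5 ± 55.5 CPM in pax2a-low, src at 9.17 ± 11.9 in pax2a-high against 82.8 ± 41.5 CPM in pax2a-low and the focal adhesion kinase gene ptk2ab at 7.16 ± 8.55 in pax2a-high against 122 ± 90.2 CPM in pax2a-low (SD, n = 3 each; edgeR adjusted p of 0.157, 0.219 and 0.227). Other kinase genes of the list had values in the opposite direction or close to even. The second focal adhesion kinase copy ptk2aa was at 84.3, 69.7 and 42.3 CPM in pax2a-high libraries, against 0, 24.8 and 27.7 CPM in pax2a-low libraries, without overlap (log2 fold change 1.9, adjusted p = 0.709 by edgeR), and the log2 fold changes of ddr1, ilk and ptk2bb were 0.92, 0.15 and -0.12. Of other metalloproteinases and inhibitors, 17 were tested, with a median log2 fold change of -0.12. At an adjusted edgeR p of 0.05, 0 were higher and 1 lower (5.88%), beside 1.12% and 1.46% of all genes tested. The one that fell, adam28, which encodes a membrane-bound metalloproteinase of the ADAM family, had 0, 38 and 39 counts in pax2a-high against 872, 740 and 2417 in pax2a-low (log2 fold change -7.2, SE 1.35, adjusted p = 0.00652 by edgeR). The plasminogen activator gene plaub and the serine protease gene htra1a had 236, 204 and 436 and 444, 54 and 200 counts in pax2a-high libraries, against 0 in every pax2a-low library (edgeR adjusted p of 0.18 and 0.191). Of matricellular and other matrix genes 15 were tested, with a median log2 fold change of 3.22. In 9 (60%) every pax2a-high library lay above every pax2a-low library, beside 21.4% of all genes tested, and in 1 (6.67%) below, beside 8.11%. At an adjusted edgeR p of 0.05, 1 was higher (6.67%) and 0 lower, beside 1.12% and 1.46% of all genes tested. The one that rose was fstl1b, a follistatin-like secreted glycoprotein gene, with 1100, 1310 and 3114 counts in pax2a-high against 0, 0 and 6 in pax2a-low (log2 fold change 8.62, SE 1.81, adjusted p = 0.0154 by edgeR). The thrombospondin gene thbs4a had lower values, at 0.849 ± 1.26 in pax2a-high against 82.0 ± 49.8 CPM in pax2a-low (SD, n = 3 each; adjusted p = 0.062 by edgeR), and ccn2a, which encodes connective tissue growth factor, was at 413 ± 156 in pax2a-high against 23.8 ± 24.4 CPM in pax2a-low (SD, n = 3 each; adjusted p = 0.131 by edgeR).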

How the data were processed

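The authors deposited raw counts of reads for each gene. Alignment was with HISAT2 to GRCz11 and counting used featureCounts over exons, per the submitters' processing notes, whose versions, strandedness and handling of multi-mapped reads are not given in the sources used here. Ribosomal RNA was depleted, per the labels' protocols. Most counts above 0 (67.8 to 89% per library) were even, as if both mates of a read pair had been counted. Counts are thus not single molecules. Intervals and floors took each count as a separate read and left out the spread between libraries. Intervals may thus be too narrow and fold bounds too high. A floor of 3 counts equalled 0.0842 to 0.183 CPM in libraries of pax2a-high cells, against 0.234 to 0.578 CPM for pax2a-low cells.

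Groups and replicate numbers came from sample titles. As nothing says that replicates are separate fish or pools, p-values reflect only how far these samples spread, which may be technical. All 6 libraries were fitted together in R 4.3.3, using edgeR 4.0.16 (TMM, filterByExpr, robust quasi-likelihood fit on the group alone, Benjamini-Hochberg adjustment over 12524 genes, threshold 0.05), a script tested on simulated data. Standard errors came from the quasi-likelihood statistic. The common coefficient of variation between libraries of a group was 1.499 in this fit. With a spread this large, a gene that did not pass may still differ between the populations.

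Members, classes and lists were chosen with earlier results of these data known. Members named are those past the threshold, those without overlap and with a mean of at least 5 CPM in a group, and the 3 with the highest mean CPM of each class, with the 3 smallest p of each further list. The fbn2a, fbn2b, lamc1, lama1, lama4, lamb2l, lamb4, col4a, nidogen, itga6b, itgb1b.1, itgb1b.2, itgb2, itgb6, itgae.2, itga2b, itga11b, mmp9, mmp13a, mmp19, timp4.2, col19a1 col8a2, ptk2aa, ddr1, ilk and ptk2bb values were added after they were seen. Gene lengths were not used, so levels are compared between libraries and not between genes.

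Alternatives were DESeq2 size factors, library sizes without the 37 mitochondrial rows, no count filter, at least 5 CPM in 3 libraries, DESeq2 1.42.0, limma 3.58.1 (voom, quality weights), a threshold of 0.01, a replicate block and leaving out each library. Thinning, class sums without 1 gene, halved counts and leaving out both libraries of a number were chosen after seeing the data.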

Additional observations from a re-analysis of the deposited data

How the results depend on the processing

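Over 19 alternatives there were 686 log2 fold changes of 37 tested members. Of these, 631 kept their direction and side of the threshold, 27 newly passed, 2 no longer passed and 26 changed sign. The alternative with a stricter threshold reused the edgeR fit described above, so its log2 fold changes were not recomputed. They could neither change sign nor newly pass, and all of them are counted among those kept. The sign changed in 8 members and in none of the other 29. The log2 fold change of mmp14a ran between 10.19 and 13.57. As every pax2a-low library had 0 counts of mmp14a, the size of these values is not a measured fold. The bound by counting was at least 207-fold. Its call was lost without both libraries numbered 1 (13.42, edgeR adjusted p = 0.092) or both numbered 2 (13.49, 0.18). That leaves 2 libraries a group, and the cause was not tested.

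The edgeR fit described above gave 140 higher and 183 lower of 12524 genes, with 1 of 70 members higher and 0 lower. No count filter gave 328 and 299 of 23396 genes (4 and 1 of 123 members). DESeq2 gave 962 and 500 of 14821 genes with an adjusted p (7 and 2 of 81 members). A filter of 5 CPM gave 73 higher of 9279 genes. With limma there were 309 lower of 12524 genes, and 2 of 70 members higher. A threshold of 0.01 gave 44 and 110 of 12524 genes. DESeq2 size factors gave 1 of 70 members lower, beside 215 of 12524 genes. Leaving out single libraries gave 40 to 270 higher and 120 to 253 lower genes, with 2 to 5 members higher (2.33 to 5.81% of those tested) and 0 lower. Without both libraries numbered 1 there were 7 and 42 genes and 0 of 84 members higher. Without both numbered 2 there were 6 and 47 genes and 0 of 62 members higher, and without both numbered 3, 2 of 69 members higher. The cause of these shifts was not tested beyond the smaller sets of libraries and genes named.

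DESeq2 size factors moved the median log2 fold change of all genes by -0.11. Deviations of same-numbered libraries correlated at 0.04, 0.05 and 0.06, so the numbers were not taken to pair them, although every sample correlated best with its own number. A replicate block gave 425 higher and 263 lower genes of 12524 tested, with 4 of 70 members higher (5.71%) and 0 lower. The edgeR adjusted p was 7.3e-05 for mmp14a, 0.0029 for lama5, 0.015 for hspg2 and 0.02 for itga5. The count table's headers call the numbers sets, and no source used here says what a set is.

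Sign changes were in itgav (-0.1 with DESeq2 size factors and after thinning, -0.02 without mitochondrial rows, -0.09 with DESeq2, -0.32 without both numbered 3), fn1a (0.32 with limma, 0.44 with the block), mmp14b (2.66 and 2.19 under the same), col1a1a (-0.41), col17a1b (-0.01) and col28a1a (-0.65) without both numbered 1, and col1a1b (3.14 without both numbered 2, 0.01 without both numbered 3). With single libraries left out the values ran from -0.47 to 0.78 for itgav, -3.31 to 7.47 for fn1a, -1.83 to 10.39 for mmp14b, -2.99 to 2.54 for col1a1b, -0.11 to 0.69 for col2a1b, -0.23 to 0.76 for col17a1b and -0.06 to 11.61 for col28a1a. Without pax2a-low replicate 2, fn1a, mmp14b and col28a1a had no pax2a-low counts left, so the size of their values there is not a measured fold.

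Depth limits genes at 0: 3 counts correspond to up to 0.578 CPM in pax2a-low libraries.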
